A study of Mus musculus with 16 samples.

Results

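The genes of the tendon cell programme followed across the series were the tendon transcription factors Scx, Mkx, Egr1, Egr2 and Six2, the coactivators Eya1 and Eya2, the tendon surface protein gene Tnmd, and Bop1, a gene whose span contains Scx. They were taken by name from the deposited gene identifiers and make up 9 of the 25719 genes listed. All 9 had enough counts to be tested. The RNA came from tail tendon fascicles, the thin collagen strands of the mouse tail with every cell of the tissue included. There were 8 libraries labelled wild type and 8 labelled knockout, the latter being ScxCre;Vhlf/f mice. In these, Cre recombinase under Scx control regions removes floxed Vhl from cells of the Scx lineage, so the deletion does not reach cells that never used that driver. Age, sex and strain of the mice, and whether the wild type carried the driver or the floxed allele, are not given in the sources used here. Nothing in the labels says whether the libraries of a group are separate animals, so p-values measure the spread between these libraries.

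SCX is a basic helix-loop-helix protein that marks tendon progenitors and tendon cells and acts as a dimer with E proteins. MKX, an atypical homeobox protein, and the zinc finger proteins EGR1 and EGR2 act later and raise collagen and proteoglycan genes, and TNMD is a membrane protein made by maturing tendon cells under SCX control. SIX2 is a homeobox protein of connective tissue, EYA proteins bind SIX2 and its relatives as coactivators, and BOP1 is no tendon factor but a nucleolar protein of ribosome assembly. VHL marks the hypoxia-inducible factors for destruction, so the comparison asks how these genes stand when that brake is removed.

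Total counts lay between 10792900 and 16379401 in the wild type and between 10488355 and 18753254 in the knockout. Levels are CPM, the share of a library's counts on a library size scaled by the trimmed mean of M-values, and they are compared only between libraries, never between genes. Vhl, the check of the labels, lay between 14.1 and 25.8 CPM in the wild type and between 7.51 and 10.9 CPM in the knockout, with no overlap. All 11 tenocyte markers of a marker list passed the expression filter, with a mean log2 CPM between 9.92 and 10.65 in the wild type and between 9.48 and 10.11 in the knockout. Skeletal muscle RNA varied widely: the summed level of 16 muscle markers was 104 to 10594 CPM among wild type and 418 to 24873 CPM among knockout libraries. Knockout libraries 6, 7 and 8 and wild type library 5 had the highest muscle score. Knockout libraries 5, 6 and 8 and wild type library 8 stood apart in Scx itself, and results are therefore given with and without them.

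Of the 9 genes, 7 passed the threshold, an adjusted p under 0.05 in the quasi-likelihood F test of edgeR over all 14803 tested genes. Bop1, Egr2 and Eya1 rose in the knockout and Eya2, Six2, Mkx and Tnmd fell, while Scx and Egr1 did not pass. Across all tested genes 48.3% passed (25.6% higher and 22.7% lower), so 7 of 9 is to be read against that share. The gene list counts below are to be read against the same shares. With total counts in place of the trimmed-mean scale, 8270 of the 14803 genes passed upward and 1415 downward. List counts on that scale are to be read against these. In the main fit the groups did not overlap for Eya2, Six2 and Mkx, against 19.4% of all tested genes. The median log2 fold change was 0.16 over the 9 genes and 0.02 over all tested genes. Without the 4 libraries high in Scx, 7 of the 9 passed again, where 41.1% of all genes did. Bop1 is among these 7, but the libraries left out were also its highest within each genotype, so its call there is not a separate test. Since the libraries are bulk tissue, fewer cells of a type and less RNA per cell cannot be told apart.

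**Figure D1:**
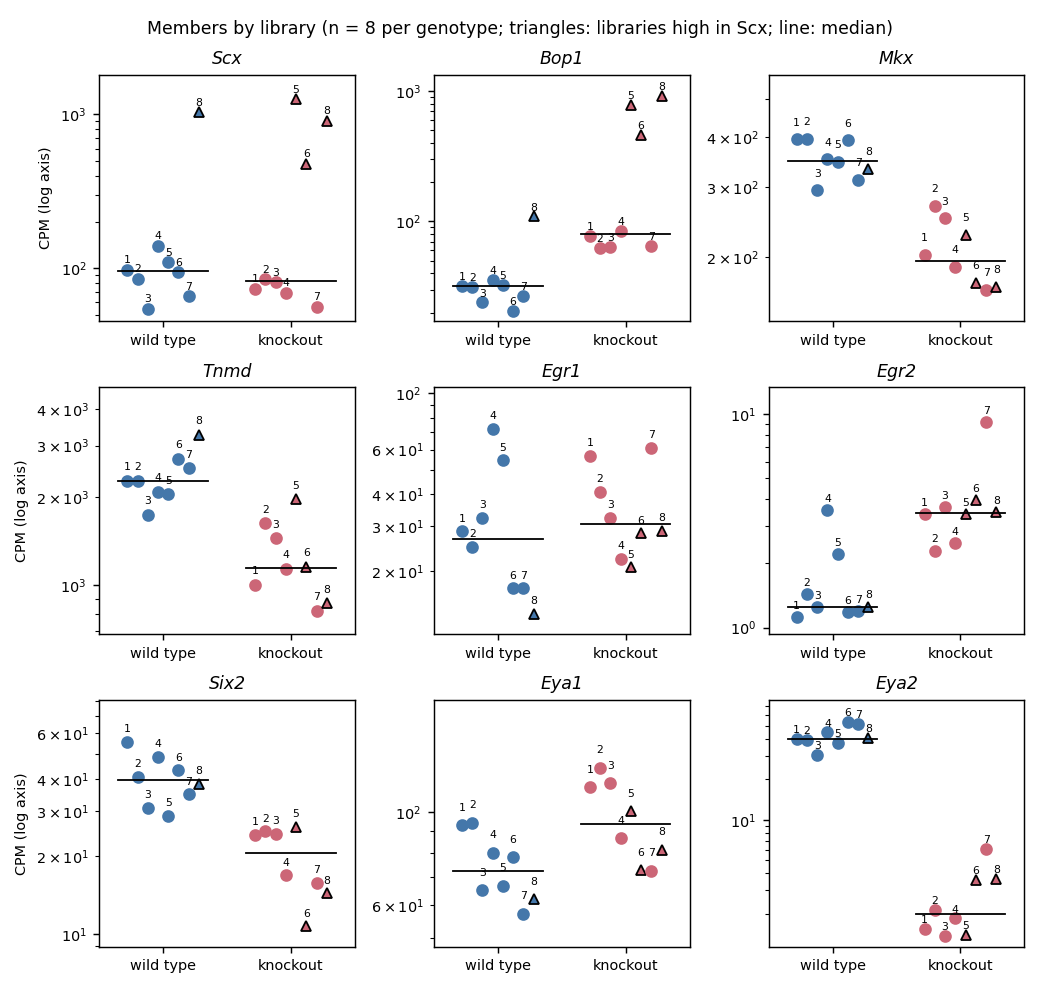
CPM of each of the 9 genes in every library on a log axis, wild type in blue and knockout in red, with the replicate number beside each point, triangles for the 4 libraries high in Scx and a line at the group median. Eya2, Six2 and Mkx separate the genotypes without overlap, whereas Scx reaches 1033 CPM in a wild type library and 1251 CPM in a knockout library.

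Scx (ENSMUSG00000034161, chromosome 15), the gene whose control regions drive the Cre, differed between libraries far more than between genotypes. In the wild type it was lowest in library 3 at 54.5 CPM, had a median of 96.3 CPM and reached 1033 CPM in library 8. In the knockout it was lowest in library 7 at 56.2 CPM, had a median of 83.1 CPM and reached 1251 CPM in library 5, with 908 CPM in library 8 and 479 CPM in library 6. These 4 libraries stand well above the other 12, which stayed at or below 140 CPM. The high values rest on 10702 counts in wild type library 8 and 25307 counts in knockout library 5, so counting error is small. The group difference was 0.84 on the log2 scale (SE 0.874, adjusted p = 0.453). It became 2.02 without wild type library 8, 0.25 without knockout library 5 and 0.51 without knockout library 8. These are given with no test, because these libraries stand out in Scx itself. With none of the 4 high libraries it was -0.35, a description with no test since they were left out for their Scx level, from 92.6 ± 28.3 CPM (SD, n = 7) in the wild type and 73.1 ± 11.3 CPM (SD, n = 5) in the knockout.

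Because Scx control regions drive the deletion, the level of Vhl was set beside that of Scx in the knockout. Vhl was measured at 7.51, 10.9 and 9.59 CPM in knockout libraries 5, 6 and 8, and between 7.74 and 10.9 CPM in the other 5. Egln3, a hydroxylase gene switched on by hypoxia-inducible factors, was at 433, 378 and 357 CPM in the same libraries and between 358 and 599 CPM in the others. The 3 knockout libraries high in Scx thus included both the lowest and the highest Vhl of the knockout, within a narrow span, and in Egln3 they lay inside or just below the values of the rest. Wild type library 8, also high in Scx, had 23.3 CPM of Vhl and 5.89 CPM of Egln3, and the remaining wild type libraries lay on both sides of it.

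Bop1 (ENSMUSG00000022557), a partner of PES1 and WDR12 in the complex that matures the large ribosomal subunit, rose in the knockout and was highest in the libraries high in Scx. In GENCODE M21 (an annotation of GRCm38) Scx lies inside the span of Bop1 on the opposite strand, without shared exon sequence. In the wild type Bop1 was lowest at 20.7 CPM, had a median of 31.9 CPM and reached 109 CPM in library 8. In the knockout it was lowest at 62.3 CPM, had a median of 80.6 CPM and reached 459, 777 and 920 CPM in libraries 6, 5 and 8. Wild type library 8 is the only wild type library inside the knockout range. The log2 fold change was 3.01 (SE 0.732, adjusted p = 0.00331). It fell to 1.27 without the 4 libraries, a description with no test. They were left out for their Scx level and were also the highest in Bop1 within each genotype, so leaving them out narrowed the spread of Bop1 itself. In the other 12 libraries Bop1 stood at 28.98 ± 5.32 CPM (SD, n = 7) in the wild type and 70.4 ± 9.66 CPM (SD, n = 5) in the knockout, and the groups did not overlap. Its exons overlap those of Mroh1 on the other strand and the use of strand in counting is not given, so Bop1 counts are uncertain to that extent.

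The ratio of Bop1 to Scx within a library does not depend on scaling. It was between 0.219 and 0.439 in wild type libraries 1 to 7 and 0.106 in wild type library 8, and between 0.621 and 1.21 in the knockout. On the log2 scale it was higher by 1.72 in the knockout. No p-value is given, because the ratio separated the genotypes without overlap and was chosen after its values were seen. Without the libraries high in Scx the difference was 1.59 over 5 against 7 libraries, given with no test because Scx itself chose them. Within the knockout, libraries 5, 6 and 8 had ratios of 0.621, 0.959 and 1.01, inside or below the 0.732 to 1.21 of the other 5, so Bop1 and Scx were high together there. In wild type library 8 Scx was 10.96 times and Bop1 3.45 times the median of the other wild type libraries.

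The genes on either side were not raised as Scx and Bop1 were in these 4 libraries. Of the 5 measured genes before and after Scx in annotation order, Tssk5, Scrt1 and Tmem249 had a mean under 1 CPM and are set aside. Mroh1 was at 45.0, 38.7 and 50.8 CPM in knockout libraries 5, 6 and 8 against 41.2 to 52.7 CPM in the remaining knockouts. Hsf1, which encodes the heat shock factor, was at 28.6, 31.4 and 34.0 CPM there, against 27.8 to 35.3 CPM. Dgat1, Fbxl6 and Hgh1 stood between 0.934 and 1.30 times the median of the remaining libraries of their genotype in all 4 libraries. Some of these values were above all remaining libraries: Fbxl6 in wild type library 8 (18.1 against at most 16.1 CPM) and, by less, Fbxl6 and Hgh1 in knockout library 6 and Dgat1 in knockout library 8. The rise over neighbours was therefore seen for Bop1 and Scx among the 8 genes with at least 1 CPM, where Gm35339 was lower in knockout library 5 (0.392 times). Between the genotypes, however, both Mroh1 and Hsf1 rose too, by less than Bop1. Mroh1 rose from 32.8 ± 3.56 to 46.7 ± 4.91 CPM (SD, n = 8; log2 fold change 0.51, SE 0.0774, adjusted p = 1.75e-05) and Hsf1 from 26.2 ± 1.95 to 32.0 ± 2.69 CPM (0.29, SE 0.0648, adjusted p = 0.00101). Mroh1 shares exon sequence with Bop1, and the part of either gene's reads in the other's rise was not tested. Dgat1 fell by 0.21 (adjusted p = 0.0192). Mean levels in the wild type and the knockout were 3.66 and 2.97 CPM for Hgh1 and 14.4 and 13.3 CPM for Fbxl6. For Gm35339 they were 3.76 and 3.09 CPM.

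**Figure D2:**
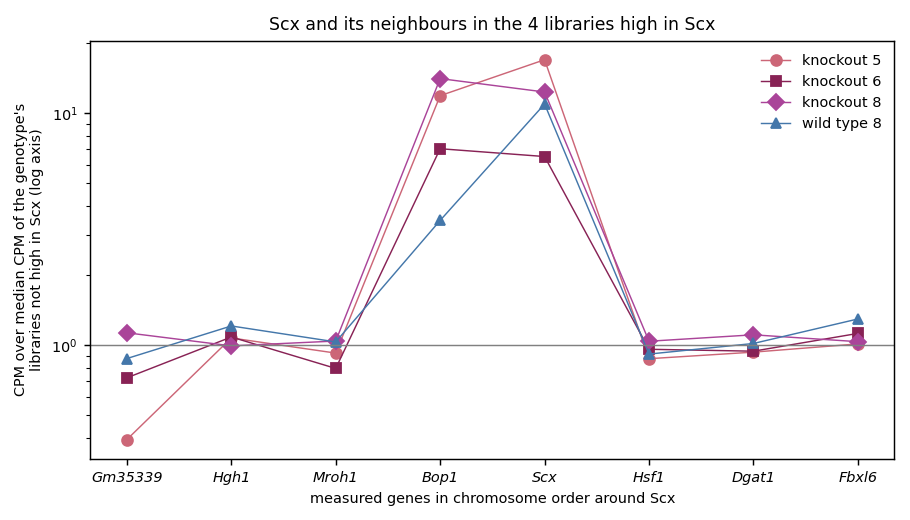
Level of each gene around Scx in the 4 libraries high in Scx, divided by the median of the libraries of the same genotype not high in Scx, on a log axis, with genes in chromosome order and 1 line per library. Bop1 and Scx stand between 3.45 and 17.0, while Mroh1 and Hsf1 stay between 0.794 and 1.04 and Fbxl6 reaches 1.30 in wild type library 8.

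Markers of Schwann cells were set beside Scx. Of 12 Schwann cell markers 7 were tested, 2 were higher and 0 lower, with a summed level of 433 to 501 CPM in the wild type and 306 to 566 CPM in the knockout. Sox10, which defines the lineage, had at most 3 counts in any wild type library and at most 10 in any knockout library. With the mean level of these markers as a covariate the difference in Scx was -0.65 (adjusted p = 0.451) and that in Bop1 1.57 (adjusted p = 0.0257). Their part in the result was not tested beyond this.

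Partners and inhibitors of bHLH proteins were listed beside Scx. Of 10 genes 9 were tested, 1 rose and 2 fell (median log2 fold change -0.16), and with total counts in place of the trimmed-mean scale 4 rose and 2 fell. Id2, which encodes an inhibitor that captures E proteins, rose from 22.9 ± 6.19 to 132 ± 34.3 CPM (SD, n = 8), or 2.53 on the log2 scale (SE 0.185, adjusted p = 4.77e-09), without overlap. Tcf12, an E protein gene, fell by 0.64 (SE 0.0647, adjusted p = 1.05e-07) and Twist2 fell by 0.85 (SE 0.113, adjusted p = 3.62e-06), both without overlap. The other E protein genes differed by 0.13 for Tcf3 (adjusted p = 0.101) and -0.16 for Tcf4 (adjusted p = 0.0912).

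Bop1 was also set beside 20 genes of ribosome assembly. Of these 20, 11 rose and 1 fell, with a median log2 fold change of 0.20, where 25.6% of all tested genes rose and 22.7% fell. With total counts 17 rose and 0 fell, but on that scale 8270 of all 14803 tested genes rose and the median over them was 0.32. Pes1 rose by 0.40 (SE 0.0856, adjusted p = 7.19e-04) and Wdr12 differed by 0.21 (SE 0.0958, adjusted p = 0.0803). Polr1a, a subunit gene of RNA polymerase I, rose by 0.67 (SE 0.0827, adjusted p = 1.57e-06) and Nob1 by 0.59 (SE 0.0830, adjusted p = 7.72e-06), whereas Dkc1 fell by 0.32 (SE 0.0858, adjusted p = 0.00439). Without the libraries high in Scx, 7 of the 20 rose and 1 fell.

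Mkx (ENSMUSG00000061013, chromosome 18) fell in the knockout without overlap. It lay between 294 and 397 CPM in the wild type, with a median of 349 CPM, and between 166 and 269 CPM in the knockout, with a median of 196 CPM. The lowest knockout libraries were 7, 8 and 6, which also had the highest muscle score. The log2 fold change was -0.78 (SE 0.107, adjusted p = 5.64e-06), or 206 ± 39.4 against 353 ± 39.4 CPM (SD, n = 8). It was -0.66 (adjusted p = 1.23e-05) with the muscle score as a covariate and -0.47 (adjusted p = 2.65e-04) with total counts. On that last scale the median over the whole table was 0.32 in place of 0.02, and the share of higher genes among those past the threshold moved from 53.0% to 85.4%.

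Tnmd (ENSMUSG00000031250, chromosome X), the late tendon cell marker, also fell. In the wild type it lay between 1739 and 3269 CPM with a median of 2271 CPM, and in the knockout between 820 and 1970 CPM with a median of 1148 CPM. The groups overlapped only in that knockout library 5, at 1970 CPM, lay above wild type library 3, at 1739 CPM. On the log2 scale the change was -0.91 (SE 0.172, adjusted p = 2.03e-04), and -0.61 (adjusted p = 0.00275) with total counts. The highest library of each genotype, wild type 8 and knockout 5, was also the highest in Scx, but knockout library 8 was high in Scx and had the second lowest Tnmd, at 868 CPM. Leaving out the 4 libraries gave -0.89 (adjusted p = 5.15e-04). Knockout libraries 7 and 8, the lowest in Tnmd, were also the highest in the muscle score.

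The stretch before the Tnmd start is shown because SCX is known to act on this gene through E-boxes (CANNTG). It comes from RefSeq on GRCm38.p6, plus strand, at chrX:133850758-133850979, ends before the first annotated exon and holds no match to be set in capitals:

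Tnmd: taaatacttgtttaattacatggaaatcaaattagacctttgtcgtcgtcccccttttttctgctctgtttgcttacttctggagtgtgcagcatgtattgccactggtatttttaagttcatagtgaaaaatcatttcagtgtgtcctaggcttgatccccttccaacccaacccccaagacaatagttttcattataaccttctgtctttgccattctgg

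Neither CANNTG nor the hypoxia response core (ACGTG or GCGTG), searched on both strands, was found in the 250 bases before the start. By comparison, 66.2% of 32807 RefSeq windows of the same length held CANNTG and 38.6% held the core. The Six2 window likewise held neither motif, and this says nothing about sites elsewhere. Windows under the symbols Tnmd, Egr2 and Six2 were matched, 3 of the 9 genes.

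Egr1 (ENSMUSG00000038418, chromosome 18), an immediate early gene that answers load and serum within minutes to hours of stimulation, did not pass the threshold. It lay between 13.6 and 72.5 CPM in the wild type, with a median of 26.8 CPM, and between 20.7 and 61.0 CPM in the knockout, with a median of 30.6 CPM. Wild type libraries 4 and 5 and knockout libraries 7 and 1 were the highest, so each genotype had both high and low libraries. The log2 difference was 0.16 (SE 0.358, adjusted p = 0.747), and it was -0.16 (adjusted p = 0.713) with the muscle score as a covariate. Fos had the profile most like it among 13662 genes, with a Pearson correlation of 0.92 and a Spearman correlation of 0.88 over 16 libraries after the genotype mean was removed.

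Egr2 (ENSMUSG00000037868, chromosome 10), a relative of Egr1 that also governs myelination in Schwann cells, rose at a low level. It lay between 1.12 and 3.56 CPM in the wild type, with a median of 1.25 CPM, and between 2.30 and 9.21 CPM in the knockout, with a median of 3.45 CPM. The wild type values rest on 10 to 51 counts and the knockout values on 27 to 190 counts per library. Wild type library 4 reached into the knockout range, and knockout library 7 stood above all others. This was a log2 rise of 1.27 (SE 0.303, adjusted p = 0.00190), 0.88 (adjusted p = 0.0127) with the muscle score as a covariate and 1.18 (adjusted p = 0.00694) with the Schwann cell score. Egr3 rose too, from 1.60 ± 0.801 to 4.63 ± 2.54 CPM (SD, n = 8; log2 fold change 1.52, SE 0.355, adjusted p = 0.00162), whereas the corepressor genes Nab1 and Nab2 differed by -0.03 (adjusted p = 0.735) and 0.17 (adjusted p = 0.283). With total counts Nab1 and Nab2 also passed upward, at 0.27 (adjusted p = 0.00869) and 0.46 (adjusted p = 0.00460), so that all 3 tested genes of this list were higher on that scale. Egr4 was not tested.

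Immediate early genes were listed beside Egr1 and Egr2. The list held 24 symbols, but Cyr61 and Ccn1 name the same gene, so it held 23 genes and all were tested. Of these 10 rose and 0 fell, where 25.6% of all tested genes rose and 48.3% passed in either direction. The median log2 fold change was 0.42, and without the libraries high in Scx 10 rose and 0 fell again. With total counts 14 rose and 0 fell, where 8270 of all 14803 tested genes rose. Ier3 rose by 2.19 (SE 0.165, adjusted p = 4.50e-09) and Fosl2, which encodes an AP-1 subunit, by 1.47 (SE 0.0923, adjusted p = 1.13e-10), both without overlap. Fos itself differed by 0.56 (SE 0.544, adjusted p = 0.416), with a range of 5.97 to 91.1 CPM in the wild type and of 17.1 to 78.8 CPM in the knockout. Serum response factor binds the CArG box, and 4 of the 5 RefSeq windows before annotated Egr2 starts held one, 3 of them the same box in overlapping windows and 1 a separate box before the second start, while the window of the first start held none. The window of the third start is shown as an example of the shared box. Read from RefSeq on GRCm38.p6, plus strand, at chr10:67537619-67537868, with the CArG box in capitals, it is:

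Egr2: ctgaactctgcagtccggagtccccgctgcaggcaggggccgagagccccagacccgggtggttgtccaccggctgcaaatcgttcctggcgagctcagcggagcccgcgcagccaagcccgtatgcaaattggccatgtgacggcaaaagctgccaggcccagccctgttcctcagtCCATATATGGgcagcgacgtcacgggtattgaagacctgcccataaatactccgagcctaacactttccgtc

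The box ends 63 bases before the start and overlaps neither a CANNTG nor a hypoxia response core match. A CArG box, searched on both strands, was present in 1.47% of the 32807 windows. The match is a property of the letters, and binding was not measured here.

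Six2 (ENSMUSG00000024134, chromosome 17) fell without overlap. It lay between 28.7 and 55.6 CPM in the wild type, with a median of 39.4 CPM, and between 10.7 and 26.0 CPM in the knockout, with a median of 20.5 CPM. Knockout libraries 6, 8 and 7, with the highest muscle score, were the lowest. The log2 fold change was -1.03 (SE 0.183, adjusted p = 1.52e-04), and -0.83 (adjusted p = 2.11e-04) with the muscle score as a covariate.

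Eya2 (ENSMUSG00000017897, chromosome 2), a coactivator of SIX2 and its relatives with a phosphatase domain, had the largest change of the 9 genes. In the wild type it lay between 30.6 and 53.4 CPM, with a median of 40.1 CPM, and in the knockout between 1.37 and 6.11 CPM, with a median of 1.99 CPM. The lowest wild type library was thus far above the highest knockout library. The knockout values rest on 16 to 126 counts per library. Knockout libraries 1 to 5 lay between 1.37 and 2.13 CPM, and libraries 6, 7 and 8, with the highest muscle score, at 3.55, 6.11 and 3.65 CPM. The log2 fold change was -3.92 (SE 0.276, adjusted p = 4.27e-09), -4.16 with the muscle score as a covariate and -4.70 (adjusted p = 3.79e-12) without the 4 libraries highest in that score.

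Eya1 (ENSMUSG00000025932, chromosome 1) went the other way by a small amount. It lay between 57.1 and 94.4 CPM in the wild type, with a median of 72.3 CPM, and between 72.4 and 128 CPM in the knockout, with a median of 93.6 CPM, and the groups overlapped widely. It rose by 0.37 on the log2 scale (SE 0.136, adjusted p = 0.0299), 0.53 (adjusted p = 0.00154) with the muscle score as a covariate and 0.68 (adjusted p = 6.67e-05) with total counts. The call was lost with limma-voom (0.33, adjusted p = 0.0576) and when any of wild type libraries 3, 5, 7 and 8 or knockout libraries 1, 2 and 3 was left out, with adjusted p between 0.0539 and 0.0656. The ratio of Eya1 to Eya2 within a library, which does not depend on scaling, was higher by 4.49 on the log2 scale in the knockout. It stood at 5.31 ± 1.05 against 0.82 ± 0.377 (SD, n = 8). No p-value is given, because Eya2 alone separated the genotypes and the ratio was chosen after its values were seen.

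Their family was listed for comparison. Of 9 further genes related to Six2, Eya1 or Dach1 5 were tested, 0 rose and 4 fell, with a median log2 fold change of -0.55, and without the libraries high in Scx the counts were again 0 and 4. Eya4 fell from 71.7 ± 10.2 to 29.3 ± 5.81 CPM (SD, n = 8; log2 fold change -1.29, SE 0.118, adjusted p = 2.92e-08) and Six4 by 0.65 (SE 0.121, adjusted p = 1.80e-04), both without overlap. Six5 fell by 0.55 (adjusted p = 0.00174), but with total counts it stood at -0.25 (adjusted p = 0.0931). Eya3 differed by 0.13 (adjusted p = 0.0940) and passed upward with total counts, at 0.43.

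**Figure D3:**
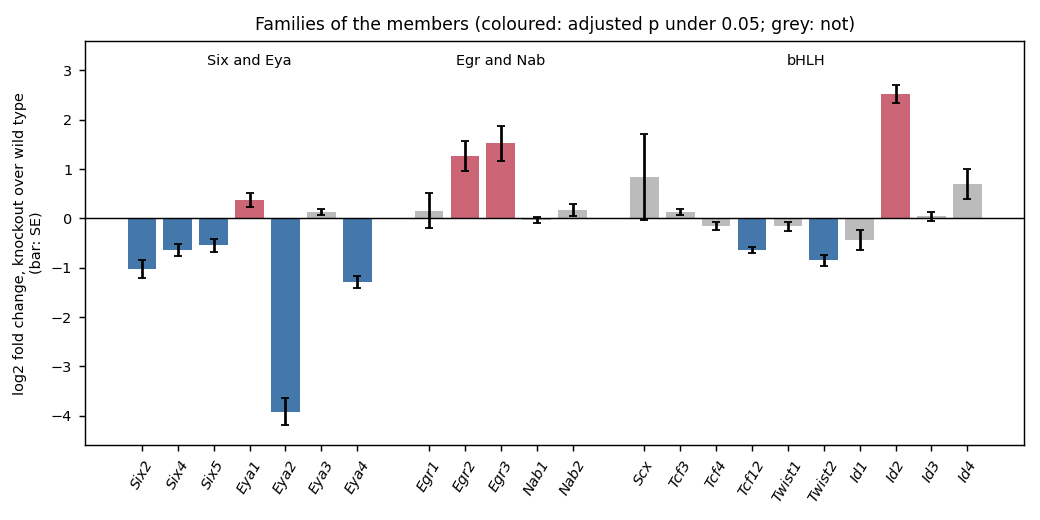
Log2 fold change of relatives of Six2 and Eya2, of Egr2 with the Nab genes, and of the bHLH genes, knockout over wild type, with bars for the SE, red for higher and blue for lower genes past the threshold and grey for the others. Eya2 at -3.92 and Id2 at 2.53 are the lowest and highest bars.

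**Figure D4:**
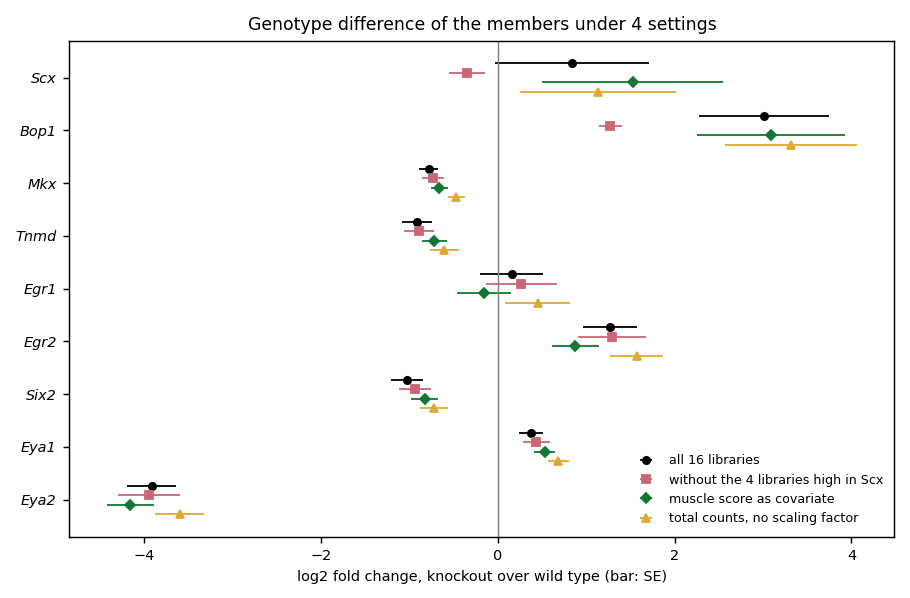
Log2 fold change of the 9 genes with SE, in all 16 libraries, without the 4 libraries high in Scx, with the muscle score as a covariate and with total counts. Scx moves from 0.84 to -0.35 and Bop1 from 3.01 to 1.27 when the 4 libraries are left out, while Eya2 stays between -4.16 and -3.60.

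Muscle and endothelial RNA both moved with several of the 9 genes within the knockout. The 3 knockout libraries highest in the muscle score, at 8.39 to 8.86 against 3.09 to 5.87 in the other 5 (mean log2 CPM of 16 markers), had the 3 lowest values of Mkx, Six2 and Eya1 and the 3 highest of Eya2. The same libraries were the highest in the endothelial score, which lay between 2.54 and 5.63 across knockout and between 1.78 and 2.50 across wild type libraries, without overlap. Pearson correlations within the knockout were -0.98 with the endothelial and -0.82 with the muscle score for Mkx. They were -0.82 and -0.81 for Six2, -0.89 and -0.75 for Eya1, and 0.81 and 0.88 for Eya2, in the same order. For Tnmd they were -0.89 and -0.85. For Egr2 they were 0.65 and 0.63, and for Scx, Bop1 and Egr1 they lay between 0.06 and 0.39. Of the muscle markers 1 of 16 rose and 0 fell between the genotypes, but their median log2 fold change was 1.65, with a wide spread between libraries. With limma-voom 6 of the 16 rose, and with the replicate number as a block 0 did. Few calls therefore do not mean equal muscle RNA in the genotypes. Of the endothelial markers 9 of 12 were tested, 7 rose and 0 fell. The 7 calls among the 9 genes were all kept with the muscle score as a covariate. The part of the endothelial markers in the result was not tested.

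**Figure D5:**
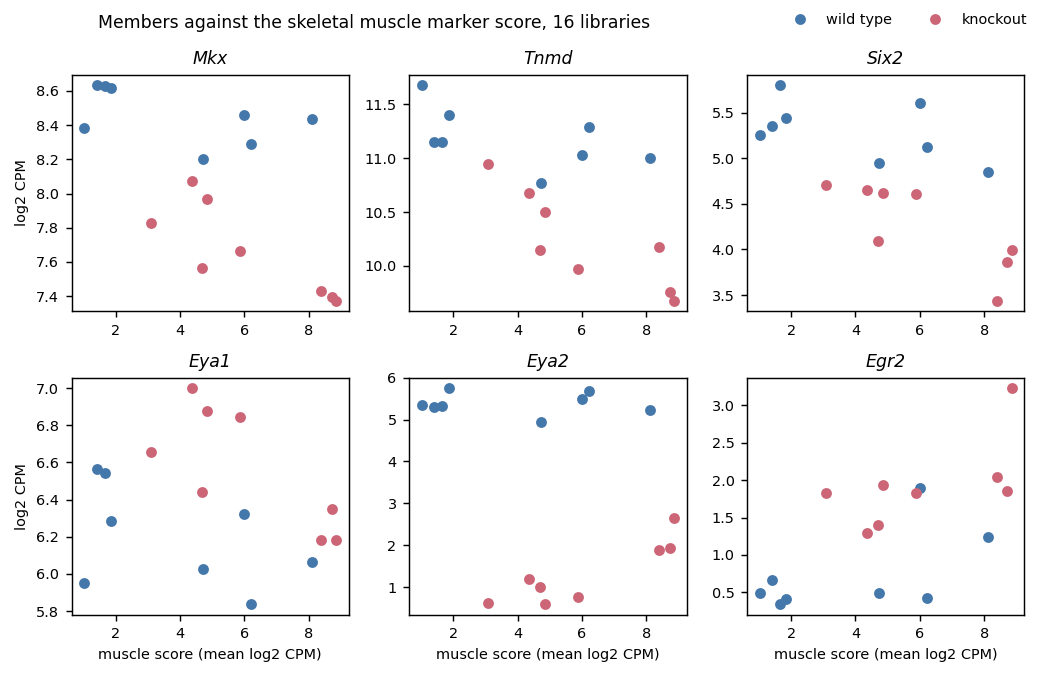
Log2 CPM of 6 of the genes against the skeletal muscle marker score in 16 libraries, wild type in blue and knockout in red. The 3 knockout libraries with a score of at least 8.39 hold the lowest Mkx and Six2 and the highest Eya2 of the knockout.

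The genes most like each of the others are named on 16 libraries after the genotype mean was removed. Scx was most like Bop1 (Pearson 0.95, Spearman 0.89), but in the 12 libraries not high in Scx the Pearson value was 0.44. Mkx was most like Fam114a1 (0.92), Bmpr1b (0.91) and Osbpl2 (0.90), and Eya1 most like Cxxc5 (0.94), Bmpr1b (0.94) and Nacc2 (0.92). Tnmd was most like Fuca1 (0.93), Six2 most like Golga2 (0.89), Egr2 most like Atf6 (0.84), and Eya2 most like Igsf8 (0.93) and Acta2 (0.90). Acta2 encodes smooth muscle actin and was at 90.1, 115 and 112 CPM in knockout libraries 6, 7 and 8, against at most 39.7 CPM in the other knockout libraries. These values are the highest of 13662 per gene and are a description of these libraries only.

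Tendon matrix genes moved both ways. Of 24 listed tendon matrix genes, all tested, 7 rose and 10 fell, with a median log2 fold change of -0.15, and with total counts 11 rose and 5 fell. Kera, which encodes the proteoglycan keratocan, fell from 1306 ± 260.5 to 288 ± 140 CPM (SD, n = 8; log2 fold change -2.18, SE 0.271, adjusted p = 3.54e-06) without overlap. Col1a2 fell by 1.44 (adjusted p = 6.01e-06), whereas Aspn rose by 1.96 (SE 0.266, adjusted p = 1.08e-05) and Col3a1 by 1.89 (SE 0.122, adjusted p = 1.72e-10), both without overlap. Among 15 tested of 17 further regulators of tendon and cartilage, 6 rose and 3 fell, and with total counts 7 rose and 1 fell. Sox9, the cartilage factor, rose from 3.26 ± 1.10 to 16.7 ± 3.38 CPM (SD, n = 8; log2 fold change 2.34, SE 0.185, adjusted p = 3.90e-09) and Hoxa11 fell by 1.17 (SE 0.169, adjusted p = 1.23e-05), both without overlap. Runx2 rose by 1.61 (adjusted p = 1.78e-06) and Klf5 fell by 0.81 (adjusted p = 0.00551). With total counts Klf5 stood at -0.55 (adjusted p = 0.0652) and did not pass.

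Counts for upstream signals turned with the scale. Of 22 genes of TGF-beta and FGF signalling, which switch on Scx in the embryo, 5 rose and 11 fell, and with total counts 9 rose and 4 fell. Tgfbr3, a coreceptor gene, fell by 1.10 (SE 0.0916, adjusted p = 6.69e-09) and Etv4, a gene turned on by FGF, by 1.17 (SE 0.152, adjusted p = 2.84e-06), both without overlap. Fgf2 rose by 0.62 (SE 0.0877, adjusted p = 8.38e-06) and Smad7 by 0.54 (SE 0.123, adjusted p = 0.00114). Of 13 relatives of Tnmd and surface genes of tendon cells 12 were tested, 2 rose and 4 fell. Cd34 rose by 0.68 (adjusted p = 1.30e-04) and Itga11 by 0.65 (adjusted p = 0.0165). Cntfr was at 15.4 ± 4.05 CPM in the wild type and 0.154 ± 0.175 CPM in the knockout, and Fgfr4 at 13.3 ± 4.57 and 0.584 ± 0.332 CPM (SD, n = 8).

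Other marker lists were counted the same way, to be read against the shares over all tested genes on each scale. Of tested macrophage markers 3 of 10 rose and 0 fell (8 and 0 with total counts), of keratinocyte markers 1 of 5 rose and 3 fell (2 and 2), of adipocyte markers 1 of 2 rose, of erythroid markers 5 of 5 rose, and of chondrocyte markers 2 of 6 rose and 2 fell (3 and 2). Among the 11 tenocyte markers, which include Scx, Mkx and Tnmd, 2 rose and 6 fell, with a median log2 fold change of -0.78, and with total counts 3 rose and 6 fell.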

How the data were processed

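RNA was sequenced from 16 libraries. The authors deposited 1 column of raw whole-number counts per library, per the file headers. Kallisto, featureCounts and the build GRCm39 are named in the submitters' processing notes, with no roles or versions. Annotation release, strand setting and filters are not given in the sources used here. Of 25719 identifiers 25614 were matched to a symbol. Gene order and exon overlap came from GENCODE M21 on GRCm38, so no gene coordinates are given. Groups follow the titles.

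Counts were fitted with edgeR 4.0.16 in R 4.3.3: default expression filter, trimmed-mean scaling, robust quasi-likelihood F test with genotype as the only term, and Benjamini-Hochberg adjustment over 14803 genes. All adjusted p-values are from this fit unless another is named. Log2 CPM used a prior count of 2. Exact permutation tests of the ratios (scipy 1.17.1) are not printed, because the ratios were chosen after their values were seen. The fit was tested on simulated counts. Alternatives were other scalings, filters and tests (DESeq2 1.42.0, limma 3.58.1), the replicate number as a block, marker scores as covariates and libraries left out. Intervals are SD or SE, and counts of reads cover counting error only.

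The members, lists and tests were chosen with earlier results of these data known. Named were the 9 members, Vhl, the neighbours of Scx, up to 2 rising and 2 falling genes per list (past the threshold, mean log2 CPM at least 1) and 1 to 3 of the genes most like each member. Tcf3, Tcf4, Pes1, Wdr12, Six5, Eya3, Fos, Egln3 and Sox10 were added after their values were seen. Marker lists of other cell types are given by counts, without their leading genes, and some further genes that the rule names are not reported here.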

Additional observations from a re-analysis of the deposited data

Results flagged for a closer look

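In 18 checks of 8 libraries each (the 9 genes in each genotype, log2 CPM), an end library stood apart from the other 7 in 3 cases, where chance gives about 1 in 20 checks, or 0.900. Scx in wild type library 8 was at 10.01, with the next wild type library at 7.13. Bop1 in the same library was at 6.77, with the next at 5.15. These come from the same library and the same stretch of chromosome, so they are not independent. Egr2 in knockout library 7 was at 3.23, with the next at 2.04, and that library had the highest muscle score, 8.86.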

How the results depend on the processing

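Over 12 alternatives other than leaving out 1 library, 104 of 108 values of the 9 genes kept their direction and their side of the threshold. The exceptions were Scx at -0.65 with the Schwann cell score as a covariate and -0.35 without the 4 libraries high in Scx, Egr1 at -0.16 with the muscle score as a covariate, and Eya1 at 0.33 with limma-voom. The cause was not tested. With 1 library left out, 136 of 144 values kept both, and the exceptions concern Scx, which ranged from 0.25 to 2.02, and Eya1, which ranged from 0.31 to 0.43. The number of the 9 genes past the threshold was 6 or 7 throughout, and the number of all genes ranged from 6101 to 9685. Leaving out the 4 libraries with the highest muscle score was added after the data were seen. Same-numbered libraries did not pair: correlations of their deviations ran from -0.40 to 0.39, and in 1 of 8 cases the best match was the own number. With the replicate number as a block 7 of the 9 genes passed and 7010 genes in all, Scx was 0.47, Bop1 2.23 and Eya1 0.37. Depth limits Egr2 and, in the knockout, Eya2 the most, since their libraries hold as few as 10 and 16 counts.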
